A study of Mus musculus with 16 samples.

Results

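Cyclic AMP signalling was followed in mouse blood progenitors through 9 genes, namely 7 phosphodiesterase genes (Pde2a, Pde3b, Pde4a, Pde4b, Pde4d, Pde7a and Pde8a) and 2 genes for prostaglandin E receptors (Ptger2 and Ptger4). They were taken by symbol from the 23420 genes of the authors' deposited tables, and all 9 were found and had been tested in both tables. The genes were selected on their symbols with their fold changes in both tables known, so those fold changes are given below as a description and no test of the group was made. The tables compare mice labelled Tet2KO (genotype Tet2-/-) with mice labelled WT (genotype Tet2fl/fl, so that the controls carry a floxed allele) at 40 weeks of age, in multipotent progenitors (MPP, Lin-cKit+Sca1+CD48+CD150-) and in granulocyte-monocyte progenitors (GMP, Lin-cKit+Sca1-CD150-CD16/32+) sorted from bone marrow. TET2 oxidizes methylated cytosines of DNA. Each group had 4 mice, 16 libraries in all, and 3 mice of each genotype gave both populations. The labels used here do not name a Cre driver.

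Cyclic AMP is made by adenylyl cyclases, which receptors switch on through the G protein Gs, and it acts through protein kinase A and the Epac exchange factors. Phosphodiesterases hydrolyse cyclic AMP or cyclic GMP and so end the signal. Prostaglandin E2 raises cyclic AMP through its receptors EP2 (Ptger2) and EP4 (Ptger4) and is known for promoting the survival and engraftment of blood stem and progenitor cells.

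The called genes, those with an adjusted p of 0.05 or less in the authors' deposited table, were Pde2a in MPP, Ptger2 in GMP and Pde4a in both. The 250 bases before their annotated start sites are shown because TET2 acts on methylated cytosines, most of which lie in CpG dinucleotides, and these windows differ widely in CpG content. The sequences are those of RefSeq on GRCm38.p6, the assembly of mm10, 5′ to 3′ on the plus strand, and capitals mark each CpG. Of the 5 start sites listed for Pde2a, the most upstream one and the one with most CpGs are given.
Pde2a, chr7:101421441-101421690: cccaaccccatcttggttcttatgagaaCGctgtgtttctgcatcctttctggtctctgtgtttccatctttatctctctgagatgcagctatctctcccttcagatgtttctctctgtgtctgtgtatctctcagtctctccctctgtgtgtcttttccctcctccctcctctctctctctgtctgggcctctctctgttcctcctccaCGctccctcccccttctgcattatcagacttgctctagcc
Pde2a, chr7:101451002-101451251: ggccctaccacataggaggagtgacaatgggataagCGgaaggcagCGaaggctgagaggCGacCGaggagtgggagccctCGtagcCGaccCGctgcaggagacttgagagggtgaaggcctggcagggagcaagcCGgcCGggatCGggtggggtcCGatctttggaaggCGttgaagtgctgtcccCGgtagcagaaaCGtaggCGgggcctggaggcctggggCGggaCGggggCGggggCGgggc
Pde4a, chr9:21165464-21165713: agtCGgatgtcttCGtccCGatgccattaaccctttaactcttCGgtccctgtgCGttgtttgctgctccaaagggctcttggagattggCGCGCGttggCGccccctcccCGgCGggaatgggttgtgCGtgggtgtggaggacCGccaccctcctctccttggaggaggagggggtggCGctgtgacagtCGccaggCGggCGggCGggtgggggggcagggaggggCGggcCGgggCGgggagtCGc
Ptger2, chr14:44987861-44988110: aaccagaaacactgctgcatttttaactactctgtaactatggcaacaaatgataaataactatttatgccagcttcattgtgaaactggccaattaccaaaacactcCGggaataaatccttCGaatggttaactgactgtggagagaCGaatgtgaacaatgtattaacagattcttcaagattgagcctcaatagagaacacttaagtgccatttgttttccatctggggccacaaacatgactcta
The first Pde2a window held 2 CpGs in 250 bases and the second held 19. The window of the most upstream Pde4a start held 22, and the single Ptger2 window held 3. Methylation and the start site in use were not measured in these data.

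The tables hold a mean and a fold change per gene and no value per library, so the spread between mice enters only through the standard error (SE) that the authors' DESeq2 fit gave to each log2 fold change. The depth of the libraries is unknown. Tet2 itself was higher in the libraries labelled Tet2KO, by 0.44 (SE 0.0992) in MPP and 0.35 (SE 0.0748) in GMP on the log2 scale of the authors' deposited table. That value covers the whole gene and does not check the deletion, so each direction below rests on the labels and on the names of the tables. The gate markers Ly6a and Fcgr3 followed the sort. Ly6a, the gene of Sca1, had a mean normalized count of 266.2 in MPP and 19.5 in GMP, and Fcgr3, a gene of CD16/32, had 19.3 and 525.2. Slamf1, the gene of CD150, which both gates exclude, still had 26.7 in MPP, beside 3.77 in GMP.

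The level of each gene is the mean normalized count over the 8 libraries of a population, divided by the length of all its annotated exons in kb. In MPP, Pde4b, a phosphodiesterase specific for cyclic AMP and abundant in leukocytes, stood first with 133.8 per kb, followed by Pde7a with 87.8, Pde4a with 69.9 and Pde4d with 66.9. Ptger4 (49.6), Pde2a (37.7), Pde3b (34.0) and Pde8a (31.7) lay lower, and Ptger2 was last with 12.7 per kb. The median over 11735 tested genes with a known length was 63.8 per kb in MPP, so that Pde4b lay at the 72.0th percentile and Ptger2 at the 15.4th.

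In GMP the order was Pde4a (78.8 per kb), Pde2a (61.4), Pde7a (58.3), Pde4d (57.5), Pde4b (48.7), Ptger4 (42.8), Pde3b (33.3), Pde8a (24.7) and Ptger2 (9.68). The median over 11385 genes was 69.7 per kb. Without values per library, it cannot be said which neighbours in either order differ beyond their spread. With the longest transcript as length, Pde4d moved to the second place in MPP and to the first in GMP, while Pde4b stayed first in MPP and Pde3b, Pde8a and Ptger2 kept the last 3 places in both populations.

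Set side by side, the level of Pde4b in GMP was 0.364 times that in MPP, the lowest such ratio of the 9 genes, and that of Pde2a was 1.63 times, the highest. The other ratios lay between 0.664 for Pde7a and 1.13 for Pde4a. The tables were normalized separately, and these ratios were not tested.

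**Figure D1:**
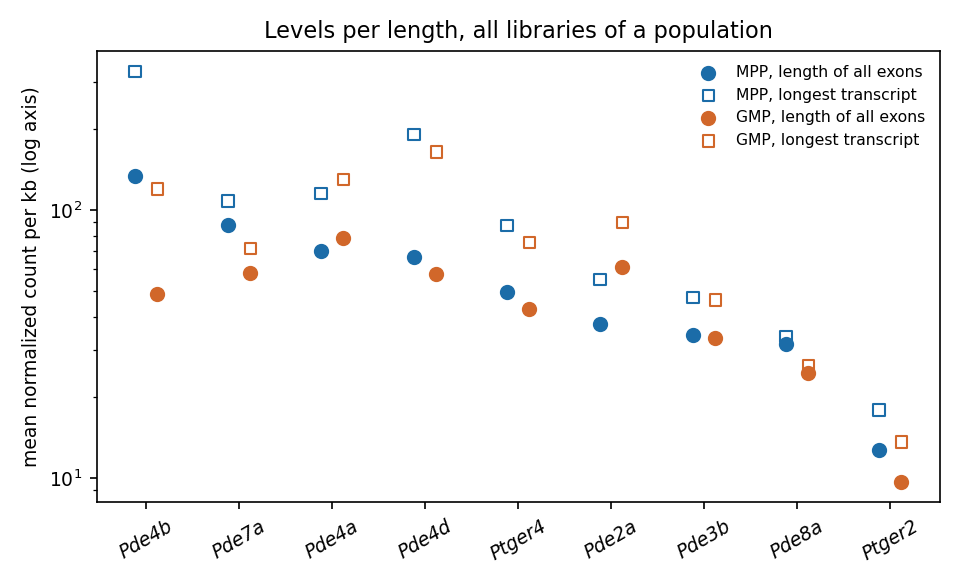
Mean normalized count per kb (log axis) of the 9 genes over all libraries of MPP (blue) and GMP (orange), divided by the length of all exons (filled circles) or of the longest annotated transcript (open squares). Ptger2 is lowest under both lengths, and Pde4b is much lower in GMP (48.7) than in MPP (133.8) on the all-exon scale.

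In MPP, 2 of the 9 genes passed in the authors' deposited table, both higher in Tet2KO. Of 11859 tested genes there, 0.616% were called, 0.346% higher and 0.270% lower. In GMP, 2 of the 9 passed, again both higher. Of 11503 tested genes there, 3.96% were called, 1.75% higher and 2.22% lower. The genes had been picked with these contrasts known, so nothing is read from these counts. Of the 9 genes, 6 had a value above 0 in MPP and 5 in GMP. On the log2 scale their median change was 0.06 for MPP and 0.10 for GMP, beside -0.00376 and 0.000251 over all tested genes. In sorted bulk samples, fewer cells of one kind and less RNA per cell cannot be told apart.

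Pde2a (chromosome 7, 101421691 to 101512827, plus strand, mm10) encodes a phosphodiesterase of both cyclic nucleotides whose hydrolysis of cyclic AMP is stimulated by cyclic GMP. Its mean normalized count was 231.5 in MPP and 377.7 in GMP. In MPP its log2 fold change was 1.08 (SE 0.197), 2.12-fold higher in Tet2KO with a 95% interval of 1.62 to 2.76, at an adjusted p of 8.64e-05 in the authors' deposited DESeq2 table. Only 25 of the tested genes had a larger positive fold change in that table. In GMP the value was 0.10 (SE 0.120), a fold of 1.07 with an interval of 0.909 to 1.26, and Pde2a was not called.

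The difference of the log2 fold changes of Pde2a, GMP minus MPP, was -0.98 (SE 0.231, 95% interval -1.44 to -0.53). Of the 11050 genes tested in both tables, 0.0633% (7 genes) passed a two-sided normal test of that difference at an adjusted p of 0.05 or less, and Pde2a was the one among the 9, with an adjusted p of 0.0316 from the authors' DESeq2 values. The contrast was known when the gene was picked, and the test ignores that some mice gave cells to both populations. The annotated gene model Gm45837 runs on the same strand and shares 64.3% of the exon bases of Pde2a. It is not among the symbols used here, so how its reads were assigned is not known.

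**Figure D2:**
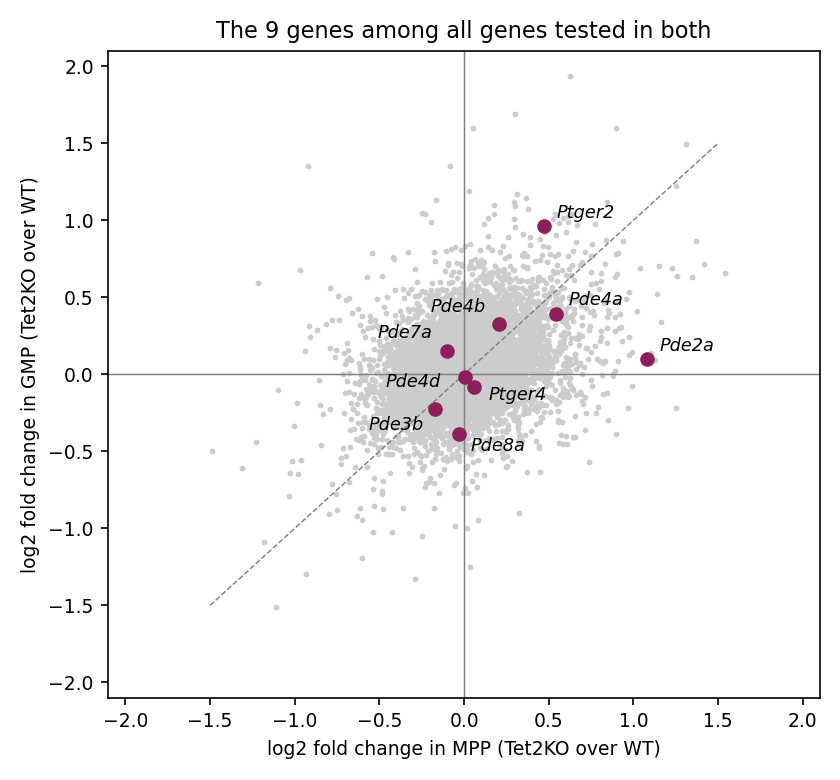
Log2 fold change of Tet2KO over WT in MPP (x axis) against GMP (y axis) for the 11050 genes tested in both tables (grey) and the 9 genes (purple), with the line of equal change dashed. Pde2a lies far to the right at 1.08 in MPP and 0.10 in GMP, Pde4a lies near the line of equal change, and Ptger2 lies above it.

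The Pde4 genes encode phosphodiesterases specific for cyclic AMP, the main ones of white blood cells. Pde4a (chromosome 9, 21165714 to 21213248, plus strand, mm10) had a mean normalized count of 535.3 in MPP and 603.4 in GMP. In MPP its log2 change was 0.54, with an SE of 0.140 and an adjusted p of 0.0230, a fold of 1.46 with a 95% interval of 1.20 to 1.76, in the authors' deposited DESeq2 table. In GMP the value was 0.39 (SE 0.0813, adjusted p = 0.000193), a fold of 1.31 with an interval of 1.18 to 1.47, also from the authors' deposited table. Pde4a was one of 8 genes called higher in both tables, 0.0724% of the genes tested in both. Its change in GMP minus MPP was -0.15 (SE 0.162).

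Pde4b (chromosome 4, 102087543 to 102607259) was not called in either population. On the log2 scale it had 0.21 (SE 0.150) in MPP and 0.32 (SE 0.132) in GMP, where the 95% interval ran from 0.07 to 0.58 before any adjustment and the authors' adjusted DESeq2 p was 0.157. Pde4d (chromosome 13, 108449948 to 109953461) had values of 0.01 (SE 0.137) and -0.02 (SE 0.0858), with intervals of -0.26 to 0.28 in MPP and -0.18 to 0.15 in GMP. In GMP the intervals of Pde4a and Pde4d do not overlap, and the difference between these genes was not tested. GENCODE lists 5 transcripts for Pde4a, 13 for Pde4b and 20 for Pde4d, each with its own start site. The deposited values sum over them, so a shift between isoforms would not be seen.

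Pde3b encodes a phosphodiesterase that cyclic GMP inhibits, and Pde7a and Pde8a encode enzymes specific for cyclic AMP. None of these 3 genes was called. Pde3b (chromosome 7, 114415281 to 114539251) had log2 fold changes of -0.17 (SE 0.151) in MPP and -0.22 (SE 0.111) in GMP, with an adjusted DESeq2 p of 0.287 in GMP. Pde8a (chromosome 7, 81213596 to 81334533) had -0.03 (SE 0.229) in MPP and -0.39 (SE 0.165) in GMP, where the unadjusted 95% interval ran from -0.71 to -0.07 and the adjusted DESeq2 p was 0.180. Pde7a (chromosome 3, 19223108 to 19311322, minus strand) had -0.10 (SE 0.169) and 0.15 (SE 0.0952), values on either side of 0. For Pde8a the difference in GMP minus MPP was -0.36 (SE 0.282), and for Pde7a it was 0.26 (SE 0.194).

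Ptger2 (chromosome 14, 44988195 to 45003820, plus strand, mm10), the gene of receptor EP2, had the lowest level per kb of the 9, with a mean normalized count of 66.2 in MPP and 50.3 in GMP. In GMP its log2 change was 0.96, with an SE of 0.292 and an adjusted p of 0.0322, a fold of 1.95 with a 95% interval of 1.31 to 2.90, in the authors' deposited DESeq2 table. In MPP the value was 0.47 (SE 0.302), a fold of 1.38 with an interval of 0.919 to 2.09, and the gene was not called. The SEs of Ptger2 were the largest among the 9 genes. The change in GMP minus MPP was 0.49 (SE 0.420, 95% interval -0.33 to 1.31), so the call in one population and not in the other does not show a difference between them.

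Ptger4 (chromosome 15, 5206661 to 5244187, minus strand), the gene of receptor EP4, had a mean normalized count of 329.4 in MPP and 284.6 in GMP. Its level per kb, 49.6 and 42.8, lay above the 12.7 and 9.68 of Ptger2. Its fold changes on the log2 scale were 0.06 (SE 0.214) and -0.08 (SE 0.130). The fold in GMP was 0.944 with a 95% interval of 0.791 to 1.13, and Ptger4 was not called in either population.

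**Figure D3:**
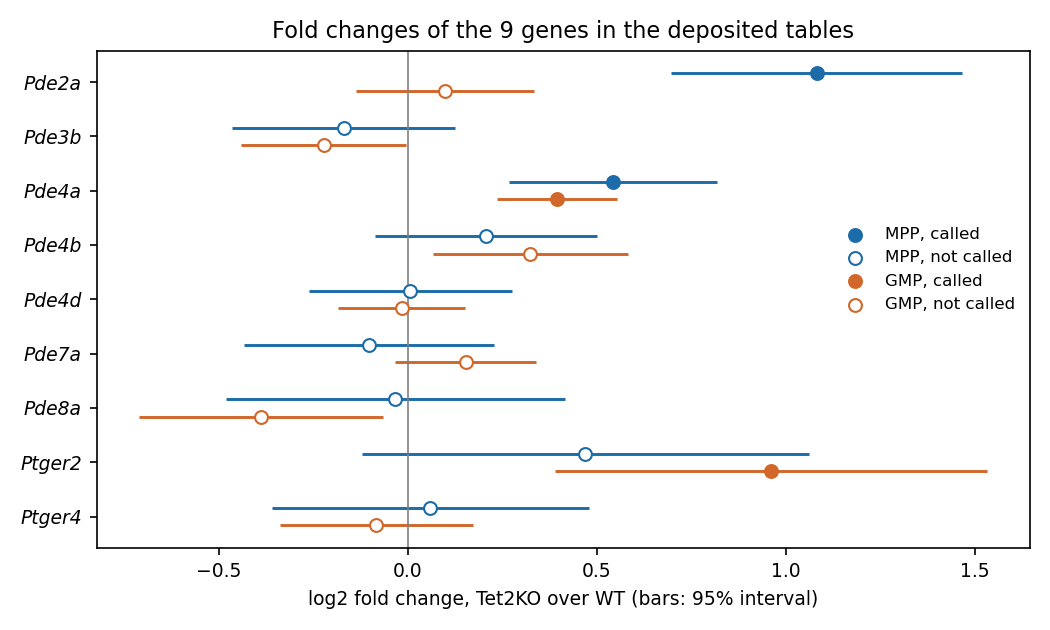
Log2 fold change of Tet2KO over WT for the 9 genes in MPP (blue) and GMP (orange) from the authors' deposited tables, with 95% intervals from the SE as bars and called genes filled. Pde2a in MPP (1.08), Pde4a in both (0.54 and 0.39) and Ptger2 in GMP (0.96) are filled, and all other points are open.

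The calls depended on the null distribution. When the statistics of all genes were centred on their median and divided by their robust spread, Pde2a in MPP kept an adjusted p of 0.00378, while Pde4a reached 0.161 in MPP and 0.0523 in GMP and Ptger2 reached 0.477 in GMP (from the authors' DESeq2 values). The fold changes appear shrunken towards 0 in the tables. Shrinkage would understate the change of a weakly expressed gene such as Ptger2, while picking genes with their fold changes known can overstate it. Neither was tested.

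The genes with the most similar pair of fold changes, over these 2 comparisons and 9101 candidate genes (means of 50 or more in each table), were found by distance on the log2 scale. For Pde2a the nearest were Inpp4b (distance 0.174, with 0.91 in MPP and 0.09 in GMP), Lpcat2 (0.262) and Hectd2 (0.263). For Pde4a they were Arhgef40 (0.0119), Kcnk5 (0.0129) and Car12 (0.0449). For Ptger2 they were Cdc42bpb (0.136), Med12l (0.182) and Cd244 (0.186).

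The rest of the pathway was described through 12 lists with 116 genes. In MPP, 77 of them were tested and 1 was called (1.30%), beside 0.616% of all tested genes. In GMP, 73 were tested and 8 were called (11.0%), 3 higher and 5 lower, beside 3.96% of all tested genes. The lists were drawn up with earlier results of these data known, so nothing is read from these shares. The median log2 fold change of the tested list genes was 0.03 in each population.

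Of the other prostanoid receptors, Ptgir, the receptor of prostacyclin that also couples to Gs, fell in MPP with a log2 fold change of -1.49 (SE 0.369, adjusted p = 0.0140, authors' DESeq2 table) at a mean of 38.3, and had -0.50 (SE 0.256) in GMP without a call. The other genes for prostaglandin E receptors had no call. Ptger1 had 0.23 (SE 0.205) in MPP and 0.01 (SE 0.0993) in GMP, and Ptger3 had -0.22 (SE 0.191) and -0.16 (SE 0.227).

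Among genes of prostaglandin synthesis, export and breakdown, 3 of 9 tested fell in GMP and none of 11 was called in MPP. Ptgs1, the constitutive cyclooxygenase, fell by 0.48 (SE 0.102), the exporter gene Abcc4 by 0.36 (SE 0.0758) and Ptgr1, a reductase of prostaglandin breakdown, by 0.41 (SE 0.131) on the log2 scale in the authors' deposited table. Their adjusted DESeq2 p in GMP was 0.000346, 0.000306 and 0.0467. In MPP their values were 0.09 (SE 0.179), -0.04 (SE 0.111) and -0.13 (SE 0.195). Their differences in GMP minus MPP did not pass (adjusted p from 0.693 for Ptgs1 to 0.9997 for Ptgr1, on DESeq2 values). Ptgs2, the inducible cyclooxygenase, was too low to be tested, with a mean of 4.54 in MPP and 3.11 in GMP.

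Of the 7 tested other phosphodiesterases in each population none was called, and Pde6d had -0.32 (SE 0.200) in MPP and -0.21 (SE 0.102) in GMP. Pde1b had 0.07 (SE 0.358) and 0.57 (SE 0.300). None of the 5 tested adenylyl cyclase genes was called, and Adcy6 and Adcy7 had 0.42 (SE 0.162) and 0.19 (SE 0.0742) in GMP. Of the G protein subunits that act on adenylyl cyclase, Gnai3, an inhibitory one, fell by 0.43 (SE 0.0518) in GMP on the log2 scale. Adora2a, a Gs-coupled adenosine receptor, rose by 0.63 (SE 0.202) in GMP, and Prkar1a, a regulatory subunit of protein kinase A, fell by 0.22 (SE 0.0550), each in the authors' deposited table. The adjusted DESeq2 p in GMP was 3.91e-13 for Gnai3, 0.0470 for Adora2a and 0.00378 for Prkar1a.

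Downstream, Fos, a gene that cyclic AMP induces among other stimuli, rose by 1.04 (SE 0.281) in GMP on the log2 scale. Its adjusted DESeq2 p there was 0.0120, and it had 0.64 (SE 0.343) in MPP. Of the cyclic AMP response genes, 6 of 7 tested lay above 0 in GMP and 7 of 8 in MPP, with 1 called in GMP and none in MPP. Over all tested genes, 5760 of 11503 lay above 0 in GMP and 5823 of 11859 in MPP. The list holds 13 genes, and those not tested were low or marked as outliers. It was drawn up with earlier results known, so nothing is read from these counts. No gene of the A-kinase anchoring, Epac and CREB lists was called in either population. The values in GMP were 0.53 (SE 0.237) for Akap5 and 0.12 (SE 0.0608) for Akap9, and 0.14 (SE 0.0574) for Crebbp and 0.13 (SE 0.0619) for Ep300. Rapgef4 had -0.62 (SE 0.267) and Rapgef3 -0.40 (SE 0.343) in MPP. Gucy1a3, a subunit of the soluble enzyme that makes cyclic GMP, rose by 1.60 (SE 0.322) in GMP at a mean of 23.3. Its adjusted DESeq2 p there was 0.000132, and it had 0.05 (SE 0.235) in MPP. The difference of 1.54 (SE 0.399) did not pass (adjusted p = 0.0952, on DESeq2 values). The fold changes and SEs within each population are those of the authors' deposited table, and the difference was computed from them.

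With the statistics centred and divided by their robust spread, 2 of the 8 list genes called in GMP passed, Gnai3 and Gucy1a3, and Ptgir in MPP did not (adjusted p = 0.130, on DESeq2 values).

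**Figure D4:**
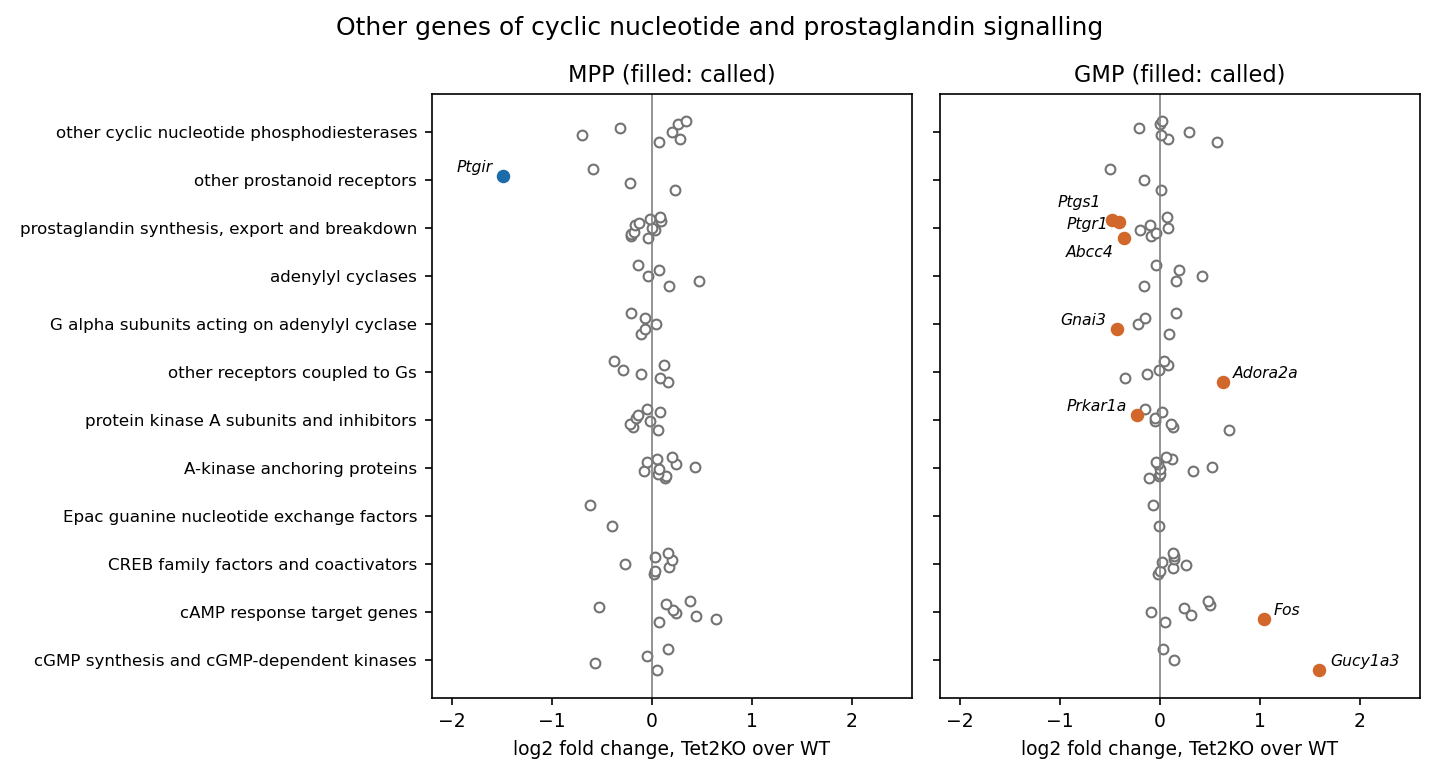
Log2 fold change of Tet2KO over WT in MPP (left) and GMP (right) for the tested genes of 12 lists of cyclic nucleotide and prostaglandin signalling, with called genes filled and named. In MPP Ptgir (-1.49) is the filled point, and in GMP 3 filled points lie above 0 and 5 below.

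Markers of other cell types were read in the same tables. Of the megakaryocyte and platelet genes 2 of 4 tested (Pf4 and Vwf) were called higher in GMP. Endothelial genes had 1 of 2 tested (Tie1) called higher in MPP and none of 4 in GMP. Emcn was the 1 tested endothelial gene below 0 in each population (-0.18 in MPP and -0.70 in GMP). Cdh5 and Kdr were too low to be tested. Among stromal genes Pdgfrb was called higher in both, as 1 of 2 tested in MPP and the only 1 tested in GMP. The other stromal genes were too low to be tested, except Col1a2 in MPP (0.48, not called). Monocyte and macrophage genes had 3 of 5 (Csf1r, Ctss and Cd68) called higher in GMP and none of 3 in MPP. Mast cell and basophil genes had 2 of 4 (Gata2 and Cma1) called lower in GMP, and late neutrophil genes 1 of 2 (Mmp8) higher. No B cell or T and NK cell gene was called, but few were tested. These were 1 of 6 B cell genes in each population, and 2 of 6 T and NK cell genes in MPP and 1 of 6 in GMP. All erythroid genes were untested, 4 of 6 being marked as outliers and the rest low, with Hba-a1 at 0 in both tables. The summed mean normalized counts of these lists, megakaryocyte and platelet genes left aside, ran from 78.9 for late neutrophil genes to 1900.2 for endothelial genes in MPP and from 159.4 for B cell genes to 5692 for mast cell and basophil genes in GMP. Single genes carried much of the largest sums. Pecam1 had 1104 in MPP beside 3.04 for Cdh5, and Cpa3 had 3549 in GMP beside 18.7 for Cma1. The sums therefore do not give the amount of other cells. Of the genes that mark the sorted cells themselves, 1 of 5 tested GMP identity genes was called lower in GMP. This was Ctsg, which encodes the granule protease cathepsin G, and the authors' deposited DESeq2 table gives it a log2 change of -0.31 with an SE of 0.0767 and an adjusted p of 0.00434. None of the 4 tested MPP identity genes was called in GMP, and in MPP none of the 2 tested MPP and 1 tested GMP identity genes was called. In MPP, 4 of the 6 GMP identity genes (Mpo, Elane, Prtn3 and Ctsg) were marked as outliers and not tested. The same held for 2 of the 4 MPP identity genes (Flt3 and Hlf), so the lack of calls there covers few genes. Sums per genotype are not in the tables, and the part of other cells or of a changed makeup of the sorted cells in the values of Pde2a, Pde4a and Ptger2 was not tested.

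The RefSeq table gave 16 promoter windows of 300 bases, from 250 before to 50 after a start site, for 7 of the 9 genes. Pde3b and Pde7a are not among them. CpG counts ran from 1 in a Pde4b window to 34 at Pde8a, and the median of all 32851 windows was 7 with quartiles of 3 and 20. The 5 windows of Pde2a held 3, 6, 18, 29 and 6 in order along the gene, and the 3 windows of Pde4a held 29, 13 and 7. Ptger2 held 3 and Ptger4 held 25. The called genes thus span windows poor and rich in CpG.

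Motifs were searched on both strands. The core TGACG of cyclic AMP response elements was found in 4 of the 16 windows, 1 each of Pde2a, Pde4a, Pde4b and Pde8a, and in 20.8% of all windows. GGGCGG, the GC box, was found in 5 windows, of Pde2a, Pde4a, Pde8a and Ptger4, and in 35.7% of all. TGTGGT, a core that RUNX factors bind, was found in 4 windows of Pde2a, Pde4a and Pde4b and in 16.8% of all, and GGAAGT, a core of ETS factors, in 1 window of Pde4b and in 23.8% of all. The E-box CACGTG was found in none of the 16 and in 7.15% of all. The Ptger2 window held none of these letters.

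**Figure D5:**
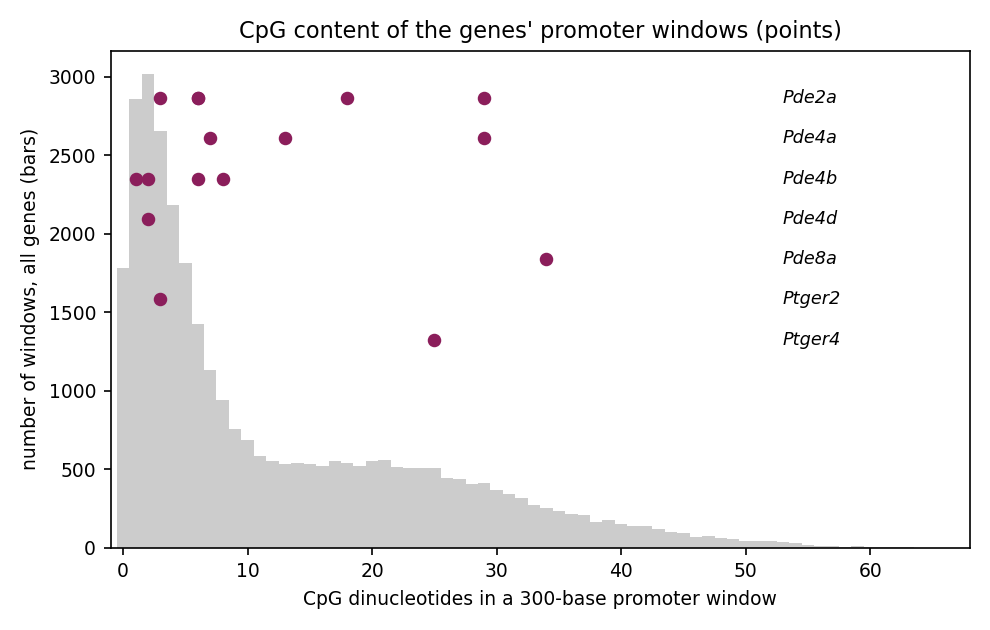
Number of CpG dinucleotides in 300-base promoter windows (x axis), with grey bars for the number of windows of all genes and purple points for the windows of the 7 genes with an entry, 1 row a gene. The Ptger2 window has 3 CpGs and the Ptger4 window 25, and the windows of Pde2a run from 3 to 29.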

How the data were processed

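Per the labels' protocols, 2 ng of RNA per sorted sample was amplified and read from a single end over 75 bases (16 libraries). The submitters' processing notes name STAR, DESeq2 and mm10, without versions. For the read counter and gene annotation, nothing is stated in these notes. The deposited signal is the mean normalized count per gene. Each log2 fold change, its SE, the p-value and its adjusted form are the authors' own, as deposited. Genes with status OK count as tested. With no counts per library, DESeq2 could not be rerun. The p-value equals the two-sided normal p of fold change over SE.

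Intervals are the fold change with 95% normal limits. The difference between populations was tested as its value over the root of the summed squared SEs, with Benjamini-Hochberg adjustment. Lengths and positions come from GENCODE M21, which held 99.0% of tested symbols, and promoters from RefSeq. Protein sequences were not used here. Calls and the difference were tested on simulated data. The simulated fold changes carried normal noise of the deposited SE, independent between populations. They therefore cannot check the SEs, the null distribution or the effect of correlated errors. The members and lists were chosen with earlier results of these data known. All 9 genes are named, with each list gene called in either table, and otherwise up to 2 of smallest p per list. Software was Python 3.11.15 with scipy 1.17.1, pandas 2.3.3, numpy 2.4.6 and, for plots, matplotlib 3.10.9. P-values rest on 4 mice per group. The megakaryocyte and platelet list in MPP is not reported here.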

Additional observations from a re-analysis of the deposited data

Results flagged for a closer look

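Pde2a had unlike changes in MPP (1.08) and GMP (0.10) on the log2 scale. The value in GMP less that in MPP was -0.98, and this gap passed its own test (adjusted p = 0.0316 on the authors' DESeq2 values), with the limit that the gene was picked with both values known.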

How the results depend on the processing

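No paired analysis was possible because the tables hold no values per library, and for the same reason no library could be left out in turn. The called members in MPP, 2 in the report, numbered 1 at an adjusted p of 0.01 and 1 with the empirical null (statistics centred and divided by their robust spread). Those in GMP, also 2, numbered 1 and 0. Pathway calls in MPP went from 1 to 0 under both settings and to 0 with a minimum mean of 50, where Ptgir is left out. In GMP they went from 8 to 5 at 0.01 and to 2 with the empirical null. With an adjusted p of 0.1, recentring on the median or outlier-marked genes included, the counts stayed within 1.5 times in both populations, as did the GMP counts with a minimum mean of 50. At that minimum, pathway calls in GMP went from 8 to 6 and those higher in Tet2KO from 3 to 1, as Fos and Gucy1a3 are left out. The count of 1 member with a different change between populations held under all 4 alternatives run. Of these, a looser cut of 0.1 could not remove the call. Another set the correlation of errors to 0.402, the correlation of both statistics over the genes tested in both populations. It took the adjusted p of Pde2a in the two-sided normal test from 0.0316 to 0.000159. That correlation also holds changes shared by both populations, so it is not one of errors alone. A positive correlation lowers the SE of every difference, so this alternative could not remove the call either, and the lower value adds no support. A cut of 0.01 and the empirical null were not run on the difference, and 0.0316 lies above 0.01. Of 18 places in the 2 orders of level per kb, 10 were the same with the longest transcript as length and 6 without length.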
